A study of Mus musculus with 45 samples.

Results

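RNA of single late two-cell embryos that came from control or K36M oocytes was compared gene by gene. The comparison held 15 embryos, 7 control oocyte-derived (replicates 1, 2, 3, 5, 6, 7 and 8) and 8 K36M oocyte-derived, out of 22 RNA libraries in the deposited expression table and 45 samples in the series. Control replicate 4, which the study set aside for a technical problem, was left out and was added back only as an alternative. The embryos were hybrids of C57BL/6 / 129 eggs and JF-1 sperm, made by in vitro fertilization after super-ovulation and collected at 31 to 32 h after fertilization. Control mothers carried the H3f3b K36M-flox/+ allele without Cre, and K36M mothers carried H3f3b K36M-flox/+ together with Gdf9-Cre, whose promoter is active in oocytes, so both groups shared the floxed allele. As the mothers were heterozygous, a K36M oocyte-derived embryo may itself be H3f3b+/+ or K36M/+. The labels give neither the genotype of an embryo nor which embryos shared a mother or a fertilization, so p-values measure the spread between these embryos. Genes were further described by origin, with 3 control libraries of pooled fully grown oocytes (FGOs) from females of 3 to 4 weeks as the maternal reference, and by function in 36 gene lists. Values of 3 K36M FGO libraries, from females of the same age, are given beside them for single genes. The control and K36M oocyte donors had the genotypes given above for the mothers, from a line kept on a mixed C57BL/6 / 129 background.

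Histone H3.3 is the replication-independent form of histone H3, and its lysine 36 is methylated by enzymes that include NSD1 and SETD2. A methionine at this position acts in a dominant way against H3K36 methyltransferases, so chromatin with little H3K36me2 can arise while the normal H3 genes remain. A mouse embryo starts with RNA stored in the oocyte, degrades most of it and turns on its own genome in a minor and then a major wave, of which the late two-cell stage shows the second. A transcript in such an embryo may therefore be maternal, zygotic or both.

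The codon that the K36M allele changes is shown to mark where the mutation lies, as read from RefSeq GRCm38.p6 (the assembly of mm10) in the first coding exon of H3f3b, chr11:116023887-116023913, minus strand. Capitals mark the lysine 36 codon, counted without the first methionine.
H3f3b: accggcggggtgAAGaagcctcaccgc
Further sequences from the same RefSeq build are the promoters of Pxdn and Bhlhe23, genes with the clearest separation of the groups upwards and, among those with a promoter entry and little or no oocyte RNA, downwards. Each window runs from 250 bases before to 50 bases after the start of the RefSeq transcript chosen for the gene, which for Pxdn lies inside the annotated gene because a predicted transcript begins further upstream. Capitals mark CG dinucleotides, the main sites of DNA methylation. They lie at chr12:29937786-29938085 (plus strand) and chr2:180776851-180777150 (minus strand).
Pxdn: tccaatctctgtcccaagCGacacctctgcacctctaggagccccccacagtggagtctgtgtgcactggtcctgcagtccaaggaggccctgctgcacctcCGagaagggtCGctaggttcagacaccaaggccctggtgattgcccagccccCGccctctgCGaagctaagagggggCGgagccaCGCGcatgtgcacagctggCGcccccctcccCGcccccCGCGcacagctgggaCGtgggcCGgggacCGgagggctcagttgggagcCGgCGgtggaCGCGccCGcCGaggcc
Bhlhe23: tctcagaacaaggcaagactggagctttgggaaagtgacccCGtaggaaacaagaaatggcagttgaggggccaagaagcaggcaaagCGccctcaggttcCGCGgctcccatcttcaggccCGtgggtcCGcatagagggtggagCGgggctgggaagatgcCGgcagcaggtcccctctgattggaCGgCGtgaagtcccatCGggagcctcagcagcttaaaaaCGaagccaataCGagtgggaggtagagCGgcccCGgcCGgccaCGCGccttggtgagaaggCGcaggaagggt
The Pxdn window held 21 CG dinucleotides and the Bhlhe23 window 19. The median over 13382 promoters of tested genes was 18, and 98.3% of them held at least 1 CG, so neither window stood apart by this count.

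Values were TPM, read counts scaled to the length of each gene and then to 1 common sum per library. The depth of a library is lost in this scaling, the reads behind a value are unknown, and a loss of RNA common to all genes, or fewer cells, cannot be told apart from no change. The number of genes with a TPM above 0 was 12115 to 17329 (mean 14686 ± 1821, SD, n = 7) in control embryos and 10894 to 14879 (mean 13067 ± 1531, SD, n = 8) in K36M embryos. The ranges overlapped, and the difference did not pass an exact two-sided permutation test (p = 0.0825 over 6435 regroupings). This measure moved in the same direction as most genes below, and its part in those differences was not tested. All 8 late two-cell markers (Zscan4c, Zscan4d, Zscan4f, Tcstv1, Tcstv3, Zfp352, Usp17la and Usp17lc) had a mean of at least 1 TPM, and their sum was 369 to 1872 TPM in control and 270.4 to 2440 TPM in K36M embryos. Markers of cumulus and granulosa cells (8 genes) summed to 3.04 to 109.9 TPM in control and 0.959 to 115 TPM in K36M embryos, with 4 of them at 0 in at least 8 of 15 embryos. For 3 sperm markers these sums were 0 to 55.2 and 0 to 12.2 TPM, and for 5 markers of blood and stroma 1.13 to 12.3 and 2.60 to 55.3 TPM. The sum of the Y-linked genes Ddx3y, Eif2s3y, Kdm5d and Uty exceeded 1 TPM in 4 of 7 control and 6 of 8 K36M embryos.

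**Figure D1:**
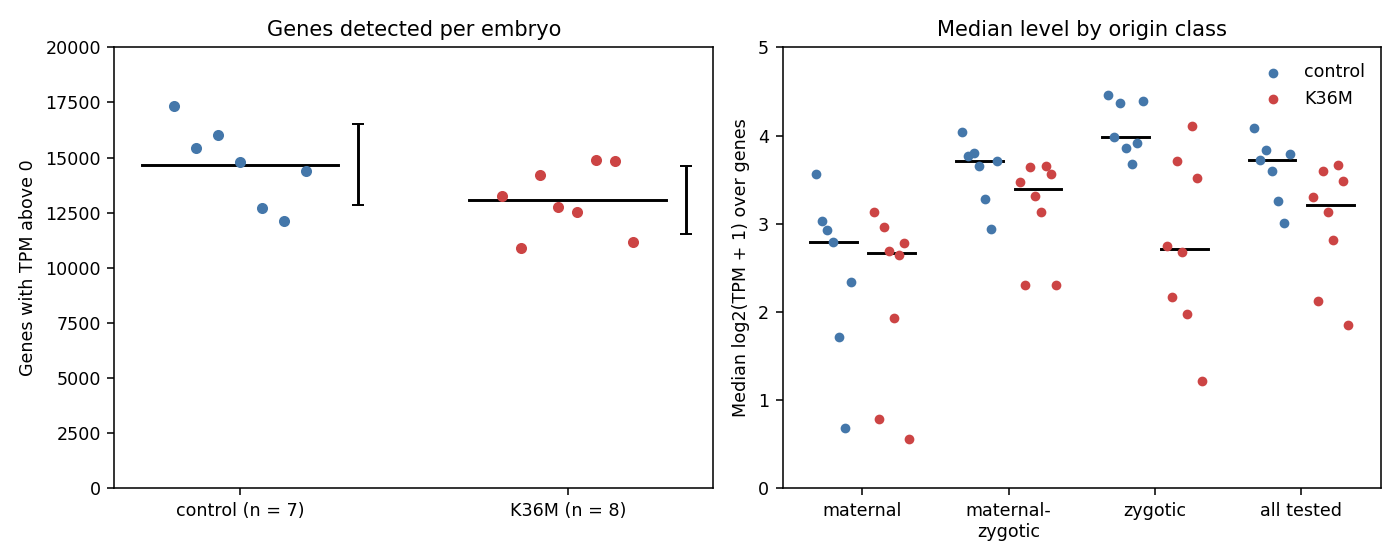
Genes detected (TPM above 0) and median log2(TPM + 1) per embryo. Left, each point is an embryo, the long bar is the group mean and the bracket its SD. The control mean was 14686 and the K36M mean 13067. Right, each point is the median over the genes of an origin class in an embryo, and bars are group medians. The zygotic class separates most, at 3.99 in control and 2.72 in K36M embryos, but it was set with the control embryos plotted.

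No gene passed an adjusted p of 0.05 in limma, which tested log2(TPM + 1) for 17362 genes with a mean of at least 1 TPM (0 called, 0% of the genes tested). The smallest adjusted p was 0.0720, for Hs3st6. An unadjusted limma p under 0.05 was found for 209 genes with higher levels in K36M embryos (1.2% of those tested) and for 1129 with lower levels (6.5%). The median log2 difference (K36M minus control, as everywhere below) over all genes tested was -0.26, and 63.8% of genes lay below 0. After quantile normalization, which gives every embryo the same distribution, the median was -0.04 and the 2 directions held 361 and 682 genes, so that 34.6% of them were higher in place of 15.6%. The lower tilt therefore depended in part on the scaling. It was widest at middle levels: over 5 equal bins of genes by mean TPM, the median difference was -0.55 in the middle bin, -0.18 in the lowest and -0.04 in the highest.

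The TPM of the mutated histone gene sums the normal and the mutated allele, so it does not check the labels. H3f3b (chromosome 11) had 301 to 968 TPM (median 389) in control and 385 to 986 TPM (median 597) in K36M embryos, ranges that overlapped for all but 1 K36M embryo (log2 difference 0.36 ± 0.25, SE; exact permutation p = 0.210). It had been 293 ± 24.6 TPM in control and 398 ± 20.8 TPM in K36M FGOs (SD, n = 3 each), where all 3 K36M libraries lay above all 3 control libraries (log2 difference 0.44 ± 0.09, SE; limma, adjusted p = 0.281).

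Pxdn (chr12:29936642-30017658), which encodes peroxidasin, a secreted peroxidase that cross-links collagen IV of basement membranes, stood out among genes with higher levels. Control embryos had 0 to 1.88 TPM (median 0.554, with 2 embryos at 0), and K36M embryos 7.24 to 43.8 TPM (median 13.9). Every K36M embryo lay above every control embryo. The log2 difference was 3.36 ± 0.68 (SE), with an adjusted p of 0.125 in limma. Without the mean-variance trend the adjusted limma p was 0.00891, and over the alternatives it ran from 0.00891 to 0.562. Pxdn was low in oocytes of both kinds, at a mean of 1.16 TPM in control and 0.663 TPM in K36M FGOs. Of the other genes of collagen IV and the basement membrane, Itga6, an integrin subunit of laminin receptors, was under the unadjusted p of 0.05 and lower (log2 difference -1.08 ± 0.46, SE), which is 1 of 32 tested members where 6.5% of all genes were lower, and the median of the list, Pxdn included, was -0.13 (0.37 after quantile normalization). Among 17 tested neighbours of Pxdn on chromosome 12, 0 were higher and 1, Sox11, was lower (-1.87 ± 0.78, SE), counts at the background of 1.2% and 6.5%. Their median was -0.24, 13 of 17 lay below 0, and with an embryo left out the median ran from -0.53 (without K36M replicate 1) to -0.09 (without control replicate 6).

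The other genes whose K36M embryos all lay above the control embryos were Cenpt, Ilrun and Acbd5, so that 4 of 17362 genes (0.023%) were separated upwards. Of the 6435 ways to regroup the embryos, 1 gives complete separation in a given direction. A few of 17362 genes would thus separate upwards without any difference, and the count was not tested against this. Cenpt, a kinetochore protein that binds centromeric DNA, had 15.9 to 57.1 TPM (median 46.2) in control and 70.5 to 138 TPM (median 86.2) in K36M embryos, a log2 difference of 1.23 ± 0.38 (SE). Ilrun, a regulator of inflammatory and antiviral signalling, had 326 to 518 TPM (median 425) and 540.5 to 779.8 TPM (median 634), a difference of 0.56 ± 0.17. For Acbd5, a peroxisomal membrane protein that binds acyl-CoA, the ranges were 185 to 279 TPM (median 252) and 286 to 486 TPM (median 306), a difference of 0.47 ± 0.21. These gaps were narrow beside the spread within a group, and the adjusted limma p-values were 0.483, 0.494 and 0.603.

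Complete separation downwards was found for 16 genes (0.0922% of those tested), and the 10 with the smallest p are described. Hs3st6 (chr17:24752988-24758690), a sulfotransferase of heparan sulfate, had 11.3 to 63.4 TPM (median 20.5) in control embryos, was at 0 in 7 of 8 K36M embryos and had 6.45 TPM in the remaining one, replicate 8. Its log2 difference was -4.26 ± 0.71 (SE), and the adjusted limma p of 0.0720 became 0.0126 without that embryo and ran from 0.00517 to 0.562 over the alternatives. Hs3st6 was listed at 0 in every FGO library. Bhlhe23, a basic helix-loop-helix repressor known from retina and brain, resembled it. Control embryos had 6.25 to 86.7 TPM (median 16.5), while 6 of 8 K36M embryos were at 0 and the highest reached 5.34 TPM (log2 difference -3.86 ± 0.75, SE; limma, adjusted p = 0.125). Both genes were thus at or near 0 in FGOs, present in the 7 control embryos compared and at 0 in most K36M embryos, but they were also at 0 in control replicate 4, the embryo left out. With that embryo added, 3 of the 4 genes separated upwards (not Cenpt) and 9 of the 16 separated downwards stayed apart; those that overlapped were Hs3st6, Bhlhe23, Lsm8, Surf1, Fbxo43, Mtus1 and Foxo1.

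Cmtm8 and Surf1 were present in oocytes and low in K36M embryos. Cmtm8, a membrane protein that affects receptor turnover, had 13.2 to 128 TPM (median 34.9) in control and 0 to 9.79 TPM in K36M embryos, 5 of which were at 0, against a mean of 171 TPM in control and 140.3 TPM in K36M FGOs. Surf1, an assembly factor of cytochrome c oxidase, had 5.10 to 36.5 TPM (median 15.7) in control embryos and 0 to 3.85 TPM in K36M embryos, also with 5 at 0. In FGOs it had been 66.2 and 66.1 TPM. Lsm8, a subunit of the ring that binds the end of U6 RNA, had 37.4 to 136 TPM (median 83.5) in control and 0 to 33.3 TPM (median 2.27) in K36M embryos. The log2 differences were -4.12 ± 0.77, -3.50 ± 0.71 and -3.91 ± 0.84 (SE), and the adjusted limma p-values 0.125, 0.125 and 0.185.

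Mtus1, a microtubule-associated tumour suppressor, was the most abundant of these genes and the one with the tightest groups. It had 703 to 1637 TPM (median 804) in control and 290.4 to 656 TPM (median 398) in K36M embryos, a log2 difference of -1.09 ± 0.22 (SE; limma, adjusted p = 0.125). Sacm1l, a phosphoinositide phosphatase of the endoplasmic reticulum and Golgi, had 16.6 to 41.7 TPM in control and 0.273 to 7.55 TPM in K36M embryos. Mkln1, a subunit of the CTLH ubiquitin ligase, had 16.6 to 73.0 and 3.28 to 14.6 TPM. Fbxo43, which holds back the anaphase-promoting complex in eggs, had 32.2 to 92.7 and 0.479 to 27.9 TPM. Gm12130, a predicted gene, had 16.9 to 48.7 and 0 to 15.3 TPM. The log2 differences of these 4 genes were -2.99, -1.99, -2.39 and -3.05, with adjusted limma p-values of 0.254 to 0.377. The remaining 6 were Arhgef10l, Zmiz1, Foxo1, Fmnl3, Fbxl8 and Slc25a13, named after their values were seen. Promoter entries were found for 16 of the 20 separated genes of both directions, with a median of 20.5 CG dinucleotides against 18 over all tested promoters.

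**Figure D2:**
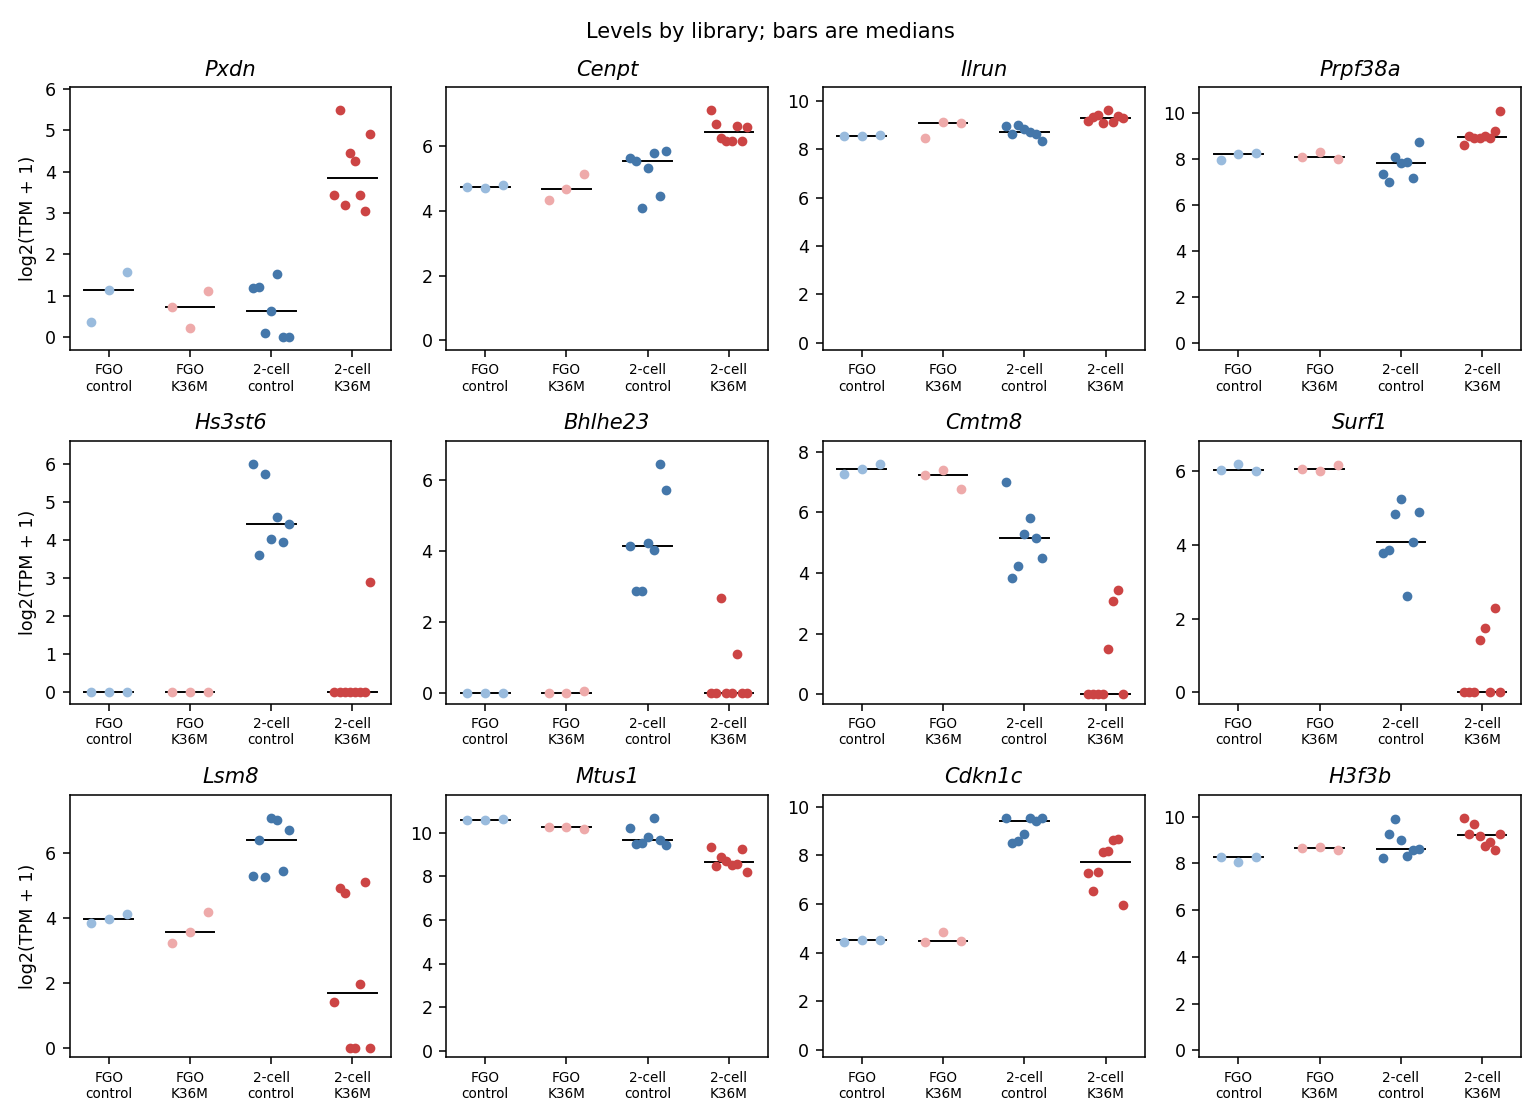
Level of 12 genes in every FGO library and every two-cell embryo of the comparison. The y axis is log2(TPM + 1) and starts just below 0 in each panel, points are libraries in replicate order, and bars are medians. The 8 K36M embryos lie above all control embryos for Pxdn, Cenpt and Ilrun and below all of them for Hs3st6, Bhlhe23, Cmtm8, Surf1, Lsm8 and Mtus1, whereas the groups overlap for Prpf38a, Cdkn1c and H3f3b.

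Origin was set from the ratio of mean TPM + 1 in control FGOs to that in control two-cell embryos. Genes at least 4-fold higher in FGOs were called maternal (1424 tested genes), those at least 4-fold higher in embryos zygotic (3788) and the rest maternal-zygotic (12150). With these classes the median log2 difference was -0.07 for maternal, -0.19 for maternal-zygotic and -0.65 for zygotic genes, and after quantile normalization 0.27, 0.03 and -0.39. With an embryo left out the maternal median ran from -0.18 (without control replicate 7) to 0.05 (without control replicate 1), so its sign was not settled. Lower levels at an unadjusted limma p under 0.05 were found for 3.86%, 5.26% and 11.5% of the 3 classes, and higher levels for 1.12%, 1.25% and 1.08%, beside 6.5% and 1.2% of all genes. The median log2(TPM + 1) of zygotic genes was 3.68 to 4.46 in control embryos and 1.22 to 4.11 in K36M embryos, so the groups overlapped in part, and 80.3% ± 6.8 (SD, n = 7) and 68.1% ± 8.3 (SD, n = 8) of the class had a TPM above 0. For maternal genes the medians were 0.688 to 3.56 and 0.556 to 3.13, which overlapped except for control replicate 1 at the top and K36M replicate 8 at the bottom.

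The order of the classes depended on which embryos set them, since the control embryos entered both the class and the difference. Classes set with the K36M embryos gave the opposite order, with medians of -0.76 for maternal, -0.27 for maternal-zygotic and 0.04 for zygotic genes. With all 15 embryos they were -0.45, -0.24 and -0.28. An alternative chosen after seeing the data set the classes by oocyte TPM alone. Embryos entered it through the filter only, since tested genes had a mean of at least 1 TPM over the 15 embryos. The median was -0.22 for 8634 genes with at least 10 TPM in control FGOs, -0.34 for 6510 genes from 0.1 to 10 TPM and -0.23 for 2218 genes under 0.1 TPM. On that scale, tested genes under 0.1 TPM in the oocyte lay as near to the median of all genes (-0.26) as genes abundant in the oocyte did. The share of all TPM in the control-defined classes differed little, at 2.80% to 4.25% maternal and 21.2% to 28.5% zygotic in control and 3.01% to 4.24% and 21.1% to 28.5% in K36M embryos.

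**Figure D3:**
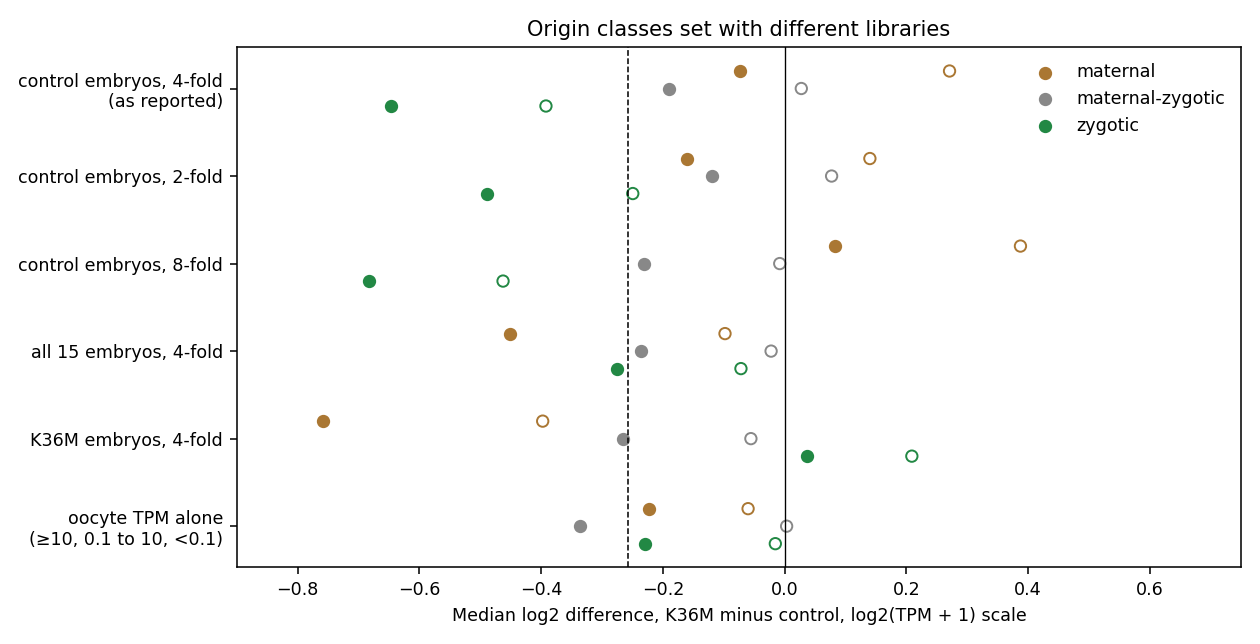
Median log2 difference (K36M minus control) of the origin classes, for each way of setting them. Filled points are log2(TPM + 1), open points the same after quantile normalization, the dashed line is the median of all genes (-0.26), and the bottom row uses oocyte TPM of at least 10, from 0.1 to 10 and under 0.1. The zygotic point lies lowest, at -0.65, with control-defined classes and highest, at 0.04, with K36M-defined classes.

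Among maternal genes, Cox6c and Mrnip had the smallest p upwards. Cox6c, a subunit of cytochrome c oxidase with a mean of 597 TPM in control FGOs, had 67.2 to 222 TPM (median 92.3) in control and 200.3 to 458 TPM (median 357) in K36M embryos, 7 of 8 of which lay above all control embryos (log2 difference 1.42 ± 0.30, SE; limma, adjusted p = 0.185). Mrnip, a factor of the DNA damage response, had 0 to 38.5 TPM (median 5.51) and 8.01 to 307 TPM (median 62.2), again with 7 of 8 above. Dscc1, part of a clamp loader of cohesion, Tcl1b5 of the Tcl1 family expressed in eggs, and 1700023D09Rik had differences of 1.93, 2.84 and 2.58. Downwards, Lhx8, a homeobox factor of oocyte growth, had 12.5 to 55.0 TPM (median 34.8) in control and 0 to 21.8 TPM (median 2.06) in K36M embryos, against 207 and 209 TPM in the FGOs (-3.13 ± 0.82, SE; limma, adjusted p = 0.377). Astl, the egg protease that cleaves ZP2 after fertilization, had 6.11 to 38.1 and 0.235 to 12.2 TPM (-2.26). Cenpm, a kinetochore protein, Gyg, which primes glycogen synthesis, and Mkln1 had differences of -2.62, -1.18 and -1.99. Groups overlapped for all of these genes except Mkln1.

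Among maternal-zygotic genes, Pxdn was joined by Prpf38a, Mir5121, Clta and Sf3a3. Prpf38a, a spliceosome protein, had 127 to 423 TPM (median 227) in control and 384 to 1095 TPM (median 492) in K36M embryos, with 7 of 8 above all controls (1.35 ± 0.27, SE; limma, adjusted p = 0.125). Sf3a3, a subunit of the U2 particle, had 32.6 to 154 and 97.1 to 254 TPM (1.46), and Clta, a clathrin light chain, 108 to 206 and 164 to 550.2 TPM (1.19). Mir5121 is a microRNA precursor of few bases, for which TPM and reads of an overlapping gene are uncertain (1.56). The lowest p downwards belonged to Cmtm8, Mtus1, Surf1 and Sacm1l, described above, and to 1700030C10Rik, which had 5.05 to 47.4 TPM in control embryos and was at 0 in 5 of 8 K36M embryos.

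The 5 zygotic genes with the smallest p upwards were Sfi1, Dph2, Dhx9, Ppp1r15a and Bag5. Sfi1, a centrin-binding protein of the spindle poles, had 135 to 569 TPM (median 237) in control and 226 to 919.9 TPM (median 721) in K36M embryos (1.20 ± 0.32, SE; limma, adjusted p = 0.377), with overlapping ranges. Ppp1r15a, which brings a phosphatase to eIF2α during stress, had 490.5 to 976 and 781 to 2278 TPM (0.69), Bag5, a co-chaperone of Hsp70, 198 to 513 and 355 to 919 TPM (0.73), and Dhx9, an RNA helicase, 51.3 to 462 and 195 to 841 TPM (1.24). Dph2, which acts in diphthamide synthesis on elongation factor 2, had a difference of 2.16. Cdkn1c (chr7:143458339-143461059), the imprinted cyclin-dependent kinase inhibitor p57, was the most abundant of the 5 zygotic genes with the smallest p downwards. It had 366 to 742 TPM (median 679) in control and 61.1 to 406 TPM (median 219) in K36M embryos, with 6 of 8 below every control embryo (-1.56 ± 0.35, SE; limma, adjusted p = 0.254), and 21.5 and 23.2 TPM in control and K36M FGOs. Ocstamp, a membrane protein of osteoclast fusion, had 0.864 to 53.9 TPM in control and 0 to 2.66 TPM in K36M embryos (-3.56), which overlapped through control replicate 7.

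**Figure D4:**
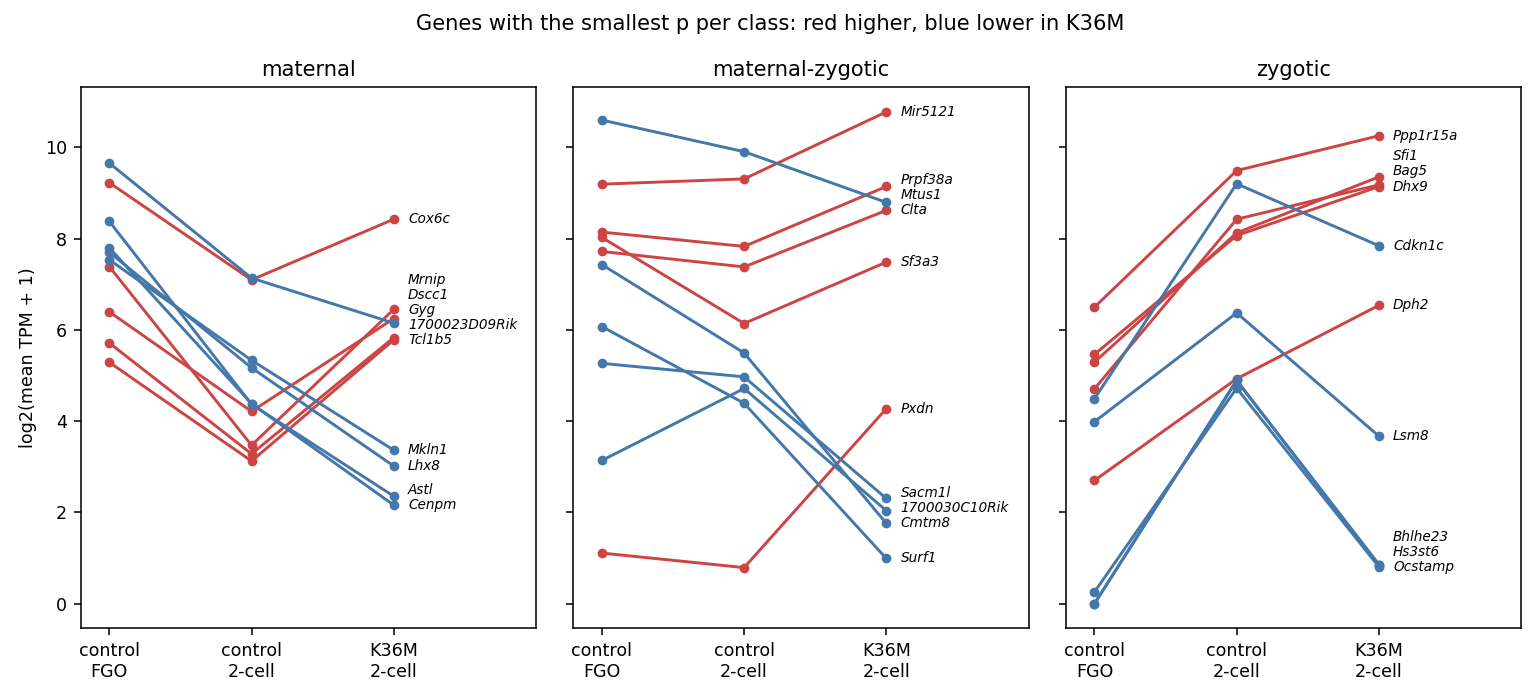
Mean level of the 5 genes per direction with the smallest p in each origin class, as log2(mean TPM + 1) in control FGOs, control embryos and K36M embryos. Red lines are genes with higher and blue lines genes with lower levels in K36M embryos. Hs3st6, Bhlhe23 and Ocstamp go from near 0 in FGOs up in control embryos and back to near 0 in K36M embryos, and Cox6c drops less in K36M than in control embryos.

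Of 36 genes described above, namely Pxdn, H3f3b, the 5 per direction of each origin class and the separated genes given with values, 32 were tested in FGOs (3 control and 3 K36M libraries), and Pxdn, Hs3st6, Bhlhe23 and Ocstamp were not. In that fit 1 of 13775 genes passed an adjusted p of 0.05 (0.00726%), and it was not among the 32, whose log2 differences ran from -0.66 to 0.68 and whose smallest adjusted limma p was 0.257.

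Genome activation factors and transcripts of the two-cell stage were measured first among functions. The medians of such lists often rested on single embryos, since 32 of 38 moved by over 1.5 times or changed sign when an embryo was left out. The 32 tested two-cell transient genes had a median difference of 0.07, with 0 members higher and 2 lower at an unadjusted p under 0.05, beside 1.2% and 6.5% of all genes, so that the lower share was near the background. Tcstv3 had 86.2 to 229 TPM (median 199.9) in control and 9.42 to 249 TPM (median 39.3) in K36M embryos (-1.61 ± 0.60, SE), and Dux, the homeobox factor upstream of many such genes, 8.62 to 43.7 TPM (median 9.87) and 0 to 25.9 TPM (median 1.15; -2.09 ± 0.87, SE). The summed level of the list was 4622 to 7876 TPM in control and 4323 to 9015 TPM in K36M embryos, so the K36M range held the whole control range. The abundant members Usp17lb and Sp110 differed by 0.35 and -0.14. Members of the Zscan4, Tcstv, Usp17l and Dux families are near-identical copies, so the value of a single member is uncertain. Of 24 Obox and genome activation factors, Dppa4 was higher (0.70) and Yap1 (-0.46) and Klf5 (-0.56) were lower at that threshold, beside 1.2% and 6.5% of all genes.

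Lists of oocyte transcripts were described next. In 16 genes of the zona and of oocyte secretion, Omt2b and Zp3, the sperm-binding zona protein, were higher and 3 members were lower, beside 1.2% and 6.5% of all genes, with a median of -0.40. Zp3 was at 19.3 to 121 TPM (median 63.6) in control and 61.7 to 205 TPM (median 108) in K36M embryos, against a mean of 2310 TPM in control FGOs. Zbed3, 1 of 9 members of the subcortical maternal complex, had 2233 to 7555 TPM (median 3213) in control and 1082 to 2665 TPM (median 1867) in K36M embryos (-0.86 ± 0.23, SE; limma, adjusted p = 0.377), with 5 of 8 below all controls. The median of the complex was 0.01. Of 29 genes of the oocyte families Nlrp, Oog, Oas1 and Fbxw, 0 were higher and 2 lower (Fbxw26 and Oog4), of 33 maternal mRNA decay factors 1 and 3 (Cnot8 higher, and Cnot11, Zfp36l2 and Cnot3 lower), and of 18 proteins of maternal mRNA storage none in either direction.

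Proteins of the cytoplasmic ribosome had the highest list median on the log2(TPM + 1) scale, but not after quantile normalization, where collagen IV and basement membrane genes and cumulus and granulosa markers were both at 0.37. Of 86 ribosomal protein genes, 7 were higher and 0 lower at an unadjusted limma p under 0.05, beside 1.2% and 6.5% of all genes, and the median difference was 0.26 (0.24 after quantile normalization). Without control replicate 6 the median was -0.04, with 5 members higher, without K36M replicate 7 it was 0.16, with 4 higher and 2 lower, and without control replicate 1 or K36M replicate 2 it was 0.12 and 0.15. The higher count was 2 without the mean-variance trend, 4 with all genes above 0 or with array weights (median 0.09) and 11 with median-of-ratios scaling. Rps27a had 8.40 to 93.2 TPM (median 37.1) in control and 37.1 to 348 TPM (median 178) in K36M embryos (1.72 ± 0.54, SE), Rpl4 224 to 881 and 516 to 1079 TPM (0.69), and Rplp2 629 to 2781 and 1712 to 3626 TPM (0.54). Their sum took 1.08% to 2.49% of all TPM in control and 1.80% to 2.79% in K36M embryos, so the groups overlapped. Ribosomal protein genes have many pseudogenes, with which reads may be shared. In 77 ribosome biogenesis genes 5 were higher and 1 lower, and 2 to 10 were higher and 0 to 3 lower over the alternatives. The median of 0.20 was 0.08 and 0.12 without control replicate 1 and 6 and 0.31 and 0.37 without control replicate 5 and K36M replicate 1. Npm1, the nucleolar chaperone nucleophosmin, had 296 to 1213 TPM (median 857) in control and 971 to 1955 TPM (median 1466) in K36M embryos, 5 of 8 above all controls (0.85 ± 0.25, SE; limma, adjusted p = 0.444), and Taf1d and Ebna1bp2 differed by 0.63 and 0.79, while Noc4l was lower (-1.75). Of these lists, 63 of 86 and 67 of 77 members were in the highest of the 5 bins by mean TPM, where the median difference of all genes was -0.04. In that bin 3.71% of genes were higher and 4.81% lower at the same threshold, a nearer background for these counts than 1.2% and 6.5%.

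Mitochondrial ribosome genes were described next. Among 77 tested, 0 were higher and 9 lower, beside 1.2% and 6.5% of all genes, and the median was -0.51 (-0.18 after quantile normalization). Mrps30 had 56.3 to 373 TPM (median 196) in control and 1.22 to 180.4 TPM (median 74.0) in K36M embryos (-1.70 ± 0.68, SE), whereas Mrps26 and Mrpl18, the 2 members with the highest mean TPM, differed by -0.44 and 0.33. In this list 13 of 77 genes were in the highest bin. Of 81 nuclear respiratory chain genes, 2 were higher (Cox6c and Ndufa4) and 6 lower, Ndufb10 the clearest at 16.3 to 133 TPM in control and 0 in 5 of 8 K36M embryos, although 1 K36M embryo reached 156 TPM. The list median was -0.39 (-0.10 after quantile normalization, -0.22 without K36M replicate 5). For 42 genes of glycolysis and pyruvate use it was -0.36 (-0.12 after quantile normalization, -0.22 and -0.24 without control replicate 1 and 3), with Cs, citrate synthase (-0.74), and Eno1 (-2.24) lower.

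Protein handling showed both directions. Of 49 proteasome genes, 4 were higher (Psmd2, Psma4, Psmc2 and Psmc1) and 3 lower (Psme2, Psmb3 and Psmb10, named after their values were seen), beside 1.2% and 6.5% of all genes. Their median of -0.40 was -0.18 after quantile normalization and rested on single embryos, since it was -0.04 without K36M replicate 8 and -0.26 to -0.16 without control replicate 1, 2, 3, 5 or 8 or K36M replicate 1 or 2. Psmd2 had 44.3 to 90.8 TPM (median 67.1) in control and 63.8 to 288 TPM (median 176) in K36M embryos, 7 of 8 above all controls (1.28 ± 0.33, SE; limma, adjusted p = 0.375). Of 37 heat shock and stress genes 5 were higher and 2 lower, beside 1.2% and 6.5% of all genes. The higher count was 2 without the mean-variance trend and 3 without K36M replicate 3, and the lower count was 4 without K36M replicate 1 or control replicate 6 and 1 without control replicate 3, 7 or 8 or K36M replicate 5 or 8. Hspa5, the chaperone BiP of the endoplasmic reticulum, had 618 to 1577 TPM (median 1328) in control and 1446 to 2190 TPM (median 1881) in K36M embryos, 7 of 8 above all controls (0.66 ± 0.17, SE; limma, adjusted p = 0.375), and Hspa8 and Hsph1 differed by 0.71 and 0.63. Atf3, a stress-induced transcription factor, was lower (-3.02). In 55 genes of translation initiation factors and their regulators 4 were higher, Eif2b4, Eif3a and Eif3c among them (1.32, 0.88 and 0.58), and Eif3k was lower (-1.66). The highest bin by mean TPM, with 3.71% of genes higher and 4.81% lower, held 24 of 49 proteasome, 21 of 37 heat shock and 39 of these 55 genes.

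The machinery of transcription and splicing was measured too, with 2 higher and 5 lower of 82 RNA polymerase II and general factor genes (Polr2j at 1.25, Med6 at -1.62, Gtf2a2 at -2.40 and Taf8 at -1.42) and 3 in each direction of 60 splicing genes, beside 1.2% and 6.5% of all genes.

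Chromatin genes were examined because the mutation acts on histone methylation. Of 67 core and linker histone genes, most of them replication-dependent, 2 were higher and 12 lower, beside 1.2% and 6.5% of all genes. The lower ones included H1f0 and H1f8, linker histones that are not tied to replication, named after their values were seen. The median of the histone list was -0.30 (-0.16 after quantile normalization), and it was -0.10 and -0.19 without control replicate 1 and 3 and -0.54 and -0.48 without control replicate 6 and 7. Over the alternatives 1 to 3 members were higher and 8 to 16 lower. H3c8 had 123 to 287 TPM (median 207) in control and 0 to 203 TPM (median 12.3) in K36M embryos, 6 of 8 below all controls (-3.61 ± 0.87, SE; limma, adjusted p = 0.306), and H3c7 107 to 443 and 11.7 to 358 TPM (-1.80). The abundant H1f1 and H2bc18 differed by 0.14 and 0.21, and the summed histone level was 1.45% to 2.21% of TPM in control and 1.20% to 2.14% in K36M embryos. Histone genes are near-identical in parts, so reads may be split between copies. Of 14 H3.3 and H3 chaperone genes, Nasp, a chaperone of H3-H4, was higher (0.97 ± 0.31, SE) and Asf1b lower (-2.03 ± 0.73, SE).

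Of 24 genes that write, erase or read H3K36 methylation, Morf4l1, a reader, was higher (0.89 ± 0.39, SE) and none was lower. Of all genes 1.2% were higher and 6.5% lower, which is the background for the counts of the next lists too. Uhrf2 (-1.91) was the member under the unadjusted p of 19 DNA methylation genes, Pcgf2 (-2.03) of 35 Polycomb genes, and 0 of 27 H3K4 and H3K9 methylation genes passed it. Among 35 genes of chromatin remodelling and architecture, Smarca5 and Hells were higher (0.64 and 0.61). Of the genes that the study lists as losing H3K36me2 in K36M oocytes, a copy cut to 1998 genes was used, 1044 of which were tested. Their median was -0.22, with 8 higher and 68 lower, shares close to those of all genes (1.2% and 6.5%), and after quantile normalization it was 0.03. The 624 tested X-linked genes had a median of -0.21, with 5 higher and 23 lower. That median was 0.01 after quantile normalization, -0.41 without control replicate 1, -0.35 without K36M replicate 3 and -0.10 without control replicate 3 or 8.

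Of 56 imprinted genes 0 were higher and 7 lower, beside 1.2% and 6.5% of all genes. The median was -0.37 (0.02 after quantile normalization) and ran from -0.54 to -0.17 with an embryo left out, the latter without control replicate 1. The lower count was 3 without control replicate 1 or K36M replicate 8, and 4 without control replicate 8 or K36M replicate 2, 4 or 5, after quantile normalization or with control replicate 4 added. Besides Cdkn1c, Dio3, a deiodinase of thyroid hormone, had 45.7 to 330.5 TPM (median 163) in control and 0 to 215 TPM (median 19.6) in K36M embryos (-3.42 ± 0.92, SE), and Impact and Atp10a differed by -2.24 and -1.80. The parental origin of these transcripts was not analysed here. In 31 pluripotency and lineage factors, Pou5f1 was higher at 274 to 979 TPM against 248 to 535 TPM (0.54 ± 0.25, SE), and Krt18, Sox2 and Klf5 were lower, with Sox2 at 0 to 143 TPM (median 54.6) in control and 0 to 64.1 TPM (median 2.37) in K36M embryos (-2.38 ± 1.00, SE).

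Of 32 p53 targets and apoptosis genes 0 were higher and 7 lower, beside 1.2% and 6.5% of all genes. The median was -0.39 (-0.22 without K36M replicate 4). The lower count was 2 after quantile normalization or with control replicate 4 added, 3 with median-of-ratios scaling, 1 without control replicate 1 or 8 and 3 or 4 without control replicate 2 or 6 or K36M replicate 1, 2, 5, 7 or 8. The most abundant, Mdm4, a brake on p53, had 1104 to 2249 TPM (median 1556) in control and 855 to 1903 TPM (median 1131) in K36M embryos (-0.46 ± 0.19, SE), and Sesn1, Bid and Aen differed by -2.04, -1.74 and -1.44. Cell cycle and repair lists held few such genes: Fanca (-1.55) of 41 in the damage checkpoint and repair, Ccne1 (0.41) and Mcm4 (1.03) higher and Cdc7 (-2.44) lower of 47 in replication, and Anapc4 (1.19) of 55 in G2/M and the spindle. Longer lists of other cell types gave 0 higher and 1 lower of 15 tested cumulus and granulosa markers (Cyp11a1, -2.01), the same counts for 6 sperm markers (Tnp1, -2.08), none in either direction for 7 markers of blood and stroma, and 0 higher and 1 lower of 8 Y-linked genes (Zfy1, -1.92).

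**Figure D5:**
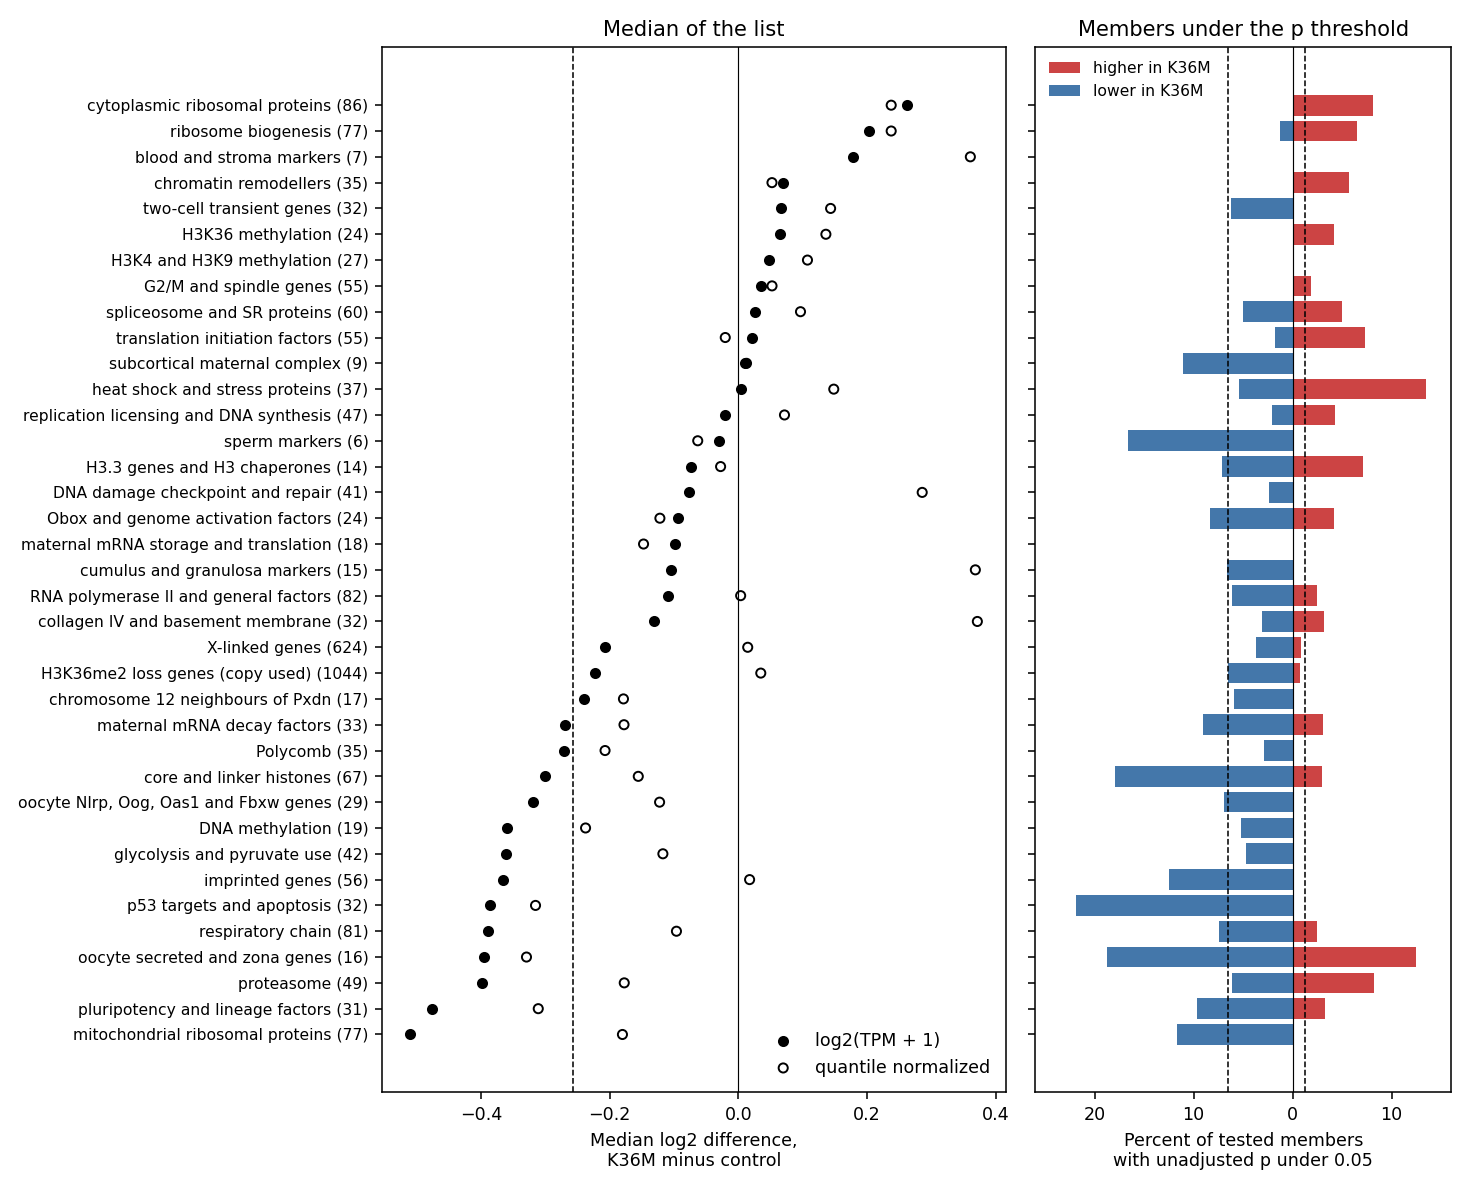
Gene lists ordered by their median log2 difference, K36M minus control, with the number of tested members in brackets. Left, filled points are log2(TPM + 1) and open points quantile-normalized values, and the dashed line is the median of all genes (-0.26). Right, bars give the percent of tested members with an unadjusted limma p under 0.05, to the right higher and to the left lower in K36M embryos, and dashed lines give the same for all genes (1.2% and 6.5%). Among filled points, cytoplasmic ribosomal proteins lie highest at 0.26 and mitochondrial ribosomal proteins lowest at -0.51. Y-linked genes are not plotted.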

How the data were processed

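The authors trimmed the reads with Trim Galore!, mapped them to mm10 with HISAT2, removed ribosomal RNA reads with bedtools, counted genes with featureCounts and deposited TPM values. The annotation, gene lengths and strand setting behind the TPM values are not given in the sources used here, so overlapping and near-identical genes are uncertain. The study tested counts with edgeR, which TPM values do not allow. Here limma (version 3.58.1, R 4.3.3) was fitted to log2(TPM + 1) (lmFit, then eBayes with a mean-variance trend and Benjamini-Hochberg adjustment) over genes with a mean of at least 1 TPM in the 15 embryos, after a check on simulated data. Oocytes were fitted apart. Single values were compared by exact two-sided permutation. The pseudocount understates differences of low genes.

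Named were Pxdn and H3f3b, 5 genes per direction and origin class, up to 10 per direction whose groups did not overlap, and per list the members under an unadjusted p of 0.05 (up to 4) and the 2 with the highest mean TPM. The members and lists were chosen with earlier results of these data known. Of the gene symbols, 99.8% were found in RefSeq GRCm38.p6. Alternatives were a pseudocount of 0.1, all genes above 0, a mean of at least 5 TPM, quantile normalization, median-of-ratios scaling, array weights, no trend, a replicate block, control replicate 4 added, each embryo left out, and other origin classes. Summaries and plots were made in Python 3.11.15 with pandas 2.3.3, numpy 2.4.6 and matplotlib 3.10.9. Allele-specific reads, methylation and histone data were not analysed here.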

Additional observations from a re-analysis of the deposited data

Results flagged for a closer look

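Among the genes described by origin or by complete separation, and the library measures, 82 comparisons looked for an embryo set apart from the others of its group, and 8 values stood out, where chance alone gives about 1 in 20. They were Hs3st6 at 6.45 TPM in K36M replicate 8 and Bhlhe23 at 5.34 TPM in K36M replicate 3, against 0 in most other K36M embryos, Cenpm at 21.7 TPM in K36M replicate 2, Prpf38a at 1095 TPM in K36M replicate 8, 1700023D09Rik at 0.473 TPM in K36M replicate 4, Fbxo43 at 0.479 TPM in K36M replicate 3, Dph2 at 0 in control replicate 6 and Ocstamp at 0.864 TPM in control replicate 7.

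Acbd5 differed in opposite directions at the stages: all K36M embryos were above all control embryos (log2 difference 0.47), whereas all 3 K36M FGO libraries were below the 3 control FGO libraries (-0.19). The difference between the stages was not tested.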

How the results depend on the processing

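Genes past an adjusted p of 0.05 numbered 0 as reported, 5 without the mean-variance trend (Hs3st6, Pxdn, Surf1, Bhlhe23 and Cmtm8), 1 with array weights (Hs3st6) and 0 under the other planned settings. Leaving out each embryo gave 0 to 1 (Hs3st6 without K36M replicate 8). Pxdn had a log2 difference of 3.36 without the trend, equal to the reported value, with an adjusted p of 0.00891. Genes with an unadjusted p under 0.05 numbered 361 higher and 682 lower after quantile normalization, in place of 209 and 1129, and 177 to 279 and 803 to 1308 with an embryo left out. The median over all genes ran from -0.39 (pseudocount 0.1) to -0.04 (quantile), and from -0.32 to -0.20 with an embryo left out; the cause was not tested. No pairing by replicate number was seen, as deviations of same-numbered embryos correlated at -0.10 to 0.10 over 7 pairs. Of 7 control embryos, 1 correlated best with its own number. These 7 correlations cannot exclude a shared mother, fertilization or batch. The replicate block gave 0 genes past the adjusted p, 231 higher and 1052 lower. Medians of the cytoplasmic ribosomal proteins ran from -0.04 to 0.54 and those of the mitochondrial ribosomal proteins from -0.87 to -0.18 over all settings. The 117 genes with recomputed differences kept their sign under every setting run. Apart from H3f3b, they were chosen for a small p or for separation in these same embryos, so the choice itself favoured a kept sign. TPM carry no depth, so levels near 0 cannot be given a counting error.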
